A study of Mus musculus with 2 samples.

Results

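A set of 10 genes, of which 9 encode secreted proteins of the inflammatory response and 1 encodes inducible nitric oxide synthase, were followed in bone marrow derived macrophages, first in the culture labelled beta-catenin deficient and then in its control. They were Tnf, Il1a, Il1b, Il1rn, Il6, Il10, Il12b, Il18, Nos2 and Saa3, taken as a named set with earlier results of these data known, and they are 10 of the 19871 genes that had a row with 1 annotated symbol. Each had 1 row in the table, so no choice between rows was needed for them.

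There was 1 array of cells labelled beta-catenin deficient and 1 array of control cells, both from mice aged 8 weeks. In both, bone marrow grew in conditioned medium of the mouse fibroblast line L929, which supplies macrophage colony-stimulating factor, and the labels name no endotoxin, interferon or other stimulus. The sources used here do not give the strain, the deleted part of the beta-catenin gene, the driver of the deletion or the number of mice behind each culture. Total RNA was measured on an Affymetrix 1.0 ST array, and the values are on the log2 scale, so that a difference of 1 is 2-fold.

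Macrophages make many of these proteins in the course of an inflammatory response. TNF and the agonists IL-1 alpha and IL-1 beta act on their receptors to switch on the transcription factor NF-kappaB, IL-6 and IL-12 carry the signal to other cells, and IL-10 and the IL-1 receptor antagonist restrain it. In resting macrophages most of these genes are kept low and are switched on strongly by bacterial products, and Nos2, which makes nitric oxide from arginine, is a textbook marker of the activated state.

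With 1 array per group there is no replicate error, no test and no p-value, and the statements below describe these 2 arrays. A gene was counted as higher or lower when its brighter value reached a floor of 7.28, which is the table's overall median, and the arrays differed by 1.5-fold or more, a log2 difference of 0.58. The floor is a rule about brightness. A gene below it is not shown to be silent. Ctnnb1, the gene of beta-catenin, had a value of 11.44 in the array labelled deficient and 11.29 in the control array, a difference of 0.15, so its level was not lower there. Its probes may lie outside the deleted part and then check nothing. The sample is therefore called the array labelled deficient, and every direction below rests on that label.

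Il1rn, Saa3 and Tnf were the 3 genes past the 1.5-fold rule. The stretches before and around their transcription start sites, as given by RefSeq on the assembly GRCm38.p6, are shown because these are the places where inflammatory transcription factors are known to act on such genes. Each runs 5′ to 3′ on the gene's own strand, 250 bases before the start site to 50 after it. Capitals mark matches, on either strand, to a form of the NF-kappaB site (GGG, then any 5 bases, then CC) and to TTNNGNAA, a form of the C/EBP site, and adjoining capitals can be overlapping matches. RefSeq gave Il1rn 3 windows, of which the second overlaps the third and is not shown.
Il1rn, chr2:24336610-24336909, plus strand: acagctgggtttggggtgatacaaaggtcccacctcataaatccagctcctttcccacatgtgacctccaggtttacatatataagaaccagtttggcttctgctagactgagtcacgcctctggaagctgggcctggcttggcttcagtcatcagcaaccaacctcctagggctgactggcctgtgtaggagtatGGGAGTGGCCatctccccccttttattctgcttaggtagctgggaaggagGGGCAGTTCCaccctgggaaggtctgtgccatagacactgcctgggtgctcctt
Il1rn, chr2:24345121-24345420, plus strand: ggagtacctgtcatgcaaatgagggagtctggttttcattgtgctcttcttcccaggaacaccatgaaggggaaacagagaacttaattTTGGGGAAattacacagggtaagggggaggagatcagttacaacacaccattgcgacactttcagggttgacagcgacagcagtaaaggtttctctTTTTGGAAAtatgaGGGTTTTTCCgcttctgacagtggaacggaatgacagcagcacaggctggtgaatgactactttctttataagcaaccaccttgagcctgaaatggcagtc
Saa3, chr7:46715627-46715926, minus strand: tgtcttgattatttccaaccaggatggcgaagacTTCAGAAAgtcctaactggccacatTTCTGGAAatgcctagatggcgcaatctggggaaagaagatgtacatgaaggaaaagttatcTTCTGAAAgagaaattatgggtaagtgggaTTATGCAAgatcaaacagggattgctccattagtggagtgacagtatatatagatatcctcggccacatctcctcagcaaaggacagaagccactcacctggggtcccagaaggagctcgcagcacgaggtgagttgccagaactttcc
Tnf, chr17:35201958-35202257, minus strand: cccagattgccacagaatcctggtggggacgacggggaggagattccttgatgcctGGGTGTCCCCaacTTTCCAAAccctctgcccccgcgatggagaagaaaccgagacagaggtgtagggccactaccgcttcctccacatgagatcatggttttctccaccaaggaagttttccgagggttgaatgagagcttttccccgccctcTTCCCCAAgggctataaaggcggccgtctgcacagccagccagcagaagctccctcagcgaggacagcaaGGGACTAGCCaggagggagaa

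The Saa3 window held 4 matches to the C/EBP letters and 0 to the NF-kappaB letters. The Tnf window held 2 of each, and TATAAA at position -29 from the start site. The upstream Il1rn window held 2 NF-kappaB matches and 0 C/EBP matches, and the downstream one 1 and 3. Of the 10 genes, 8 had a window and 2 (Il10 and Nos2) had none given. Il1rn supplied 3 of their 10 windows, 2 of them overlapping. Matches on either strand were counted, and TATAAA matched only on the other strand in the Il18 and downstream Il1rn windows. The NF-kappaB letters were in 5 windows, the C/EBP letters in 7, the AP-1 letters TGANTCA in 3 and TATAAA in 5. The letters CTTTGA, a form of the TCF/LEF site through which beta-catenin is known to act, were in 0. Among all 32851 windows the shares were 50.8%, 40.7%, 7.81%, 13.6% and 16.0% in the same order. These letters are common, a match is not a bound site, and the absence of CTTTGA says only that those letters are not in these windows. Other forms of the TCF/LEF site were not searched.

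The interleukin-1 antagonist stood highest of the 10. Il1rn encodes the IL-1 receptor antagonist, a secreted protein that occupies the IL-1 receptor without signalling. Its value was 11.83 in the array labelled deficient and 9.86 in the control array, a difference of 1.97 or 3.92-fold, and both values were well above the floor. It ranked 44 from the top among the 10658 genes at or above the floor. Genes with a mean level between 10 and 11, as Il1rn had, numbered 1535, with a median difference of -0.07 and with 5% of them above 0.74. The table holds 1 value for the gene, so its transcripts from the different start sites cannot be told apart.

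The agonists that Il1rn opposes differed far less. Il1b, whose product is cut to its active form by caspase-1, had 8.24 in the array labelled deficient and 7.81 in the control array, a difference of 0.44. Il1a, the agonist that also acts as a membrane-bound or nuclear protein, had 7.07 in the array labelled deficient and 6.60 in the control array, both below the floor, a difference of 0.46. Both agonists were slightly higher in the array labelled deficient and neither reached 1.5-fold. The gap between Il1rn and Il1b was thus wider by 1.54, or 2.90-fold, in the array labelled deficient, and that between Il1rn and Il1a by 1.51. These figures are changes in a gap and not ratios of molecules, since values of different probes are not on a common scale. Il18, a related cytokine that is also activated by caspase-1 and is made without a stimulus in many cells, had 7.94 in the array labelled deficient and 7.48 in the control array, a difference of 0.46.

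**Figure D1:**
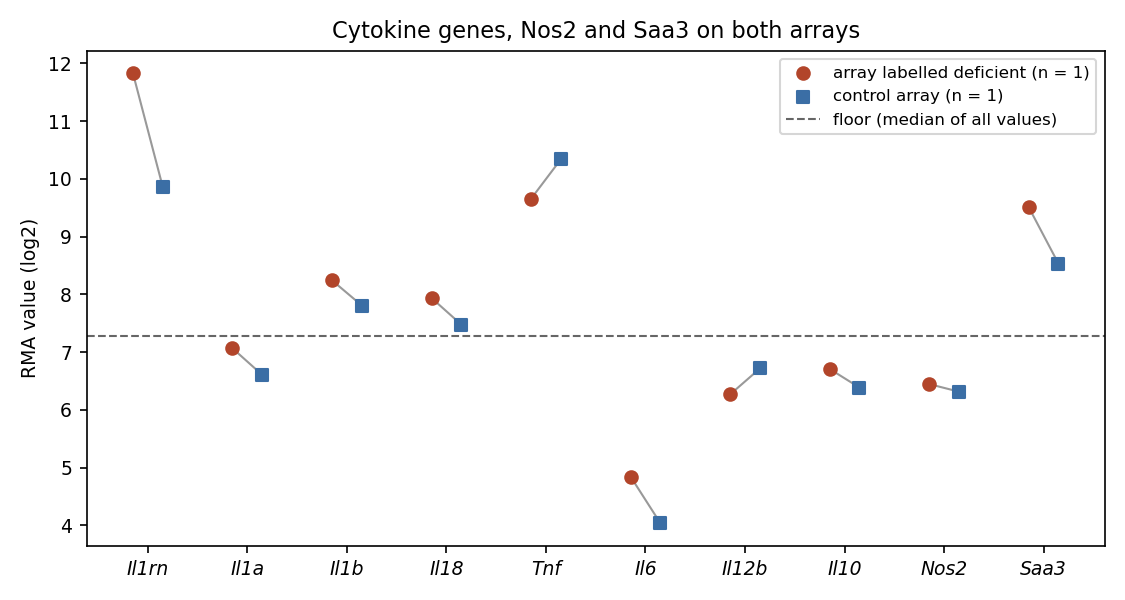
RMA value (log2, vertical axis) of each of the 10 genes in the array labelled deficient (circles, left of each pair) and in the control array (squares), 1 array each and so without error bars; the dashed line is the floor of 7.28. Il1rn has the steepest pair, 11.83 against 9.86, Tnf and Il12b are the 2 pairs that run the other way, and 5 genes lie below the floor on both arrays.

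Tnf was the one gene of the 10 counted as lower. It encodes tumour necrosis factor, the membrane-anchored and shed cytokine at the head of the inflammatory cascade. Its value was 9.65 in the array labelled deficient and 10.34 in the control array, a difference of -0.68, so that the control value was 1.61-fold the other. It ranked 634 from the bottom among genes at or above the floor. Among the 2683 genes with a mean level between 9 and 10 the lowest 5% lay below -0.72, and Tnf was not among them. Set against each other, Il1rn and Tnf moved apart by 2.66 between the arrays.

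Saa3, an acute phase serum amyloid that mouse macrophages and adipose tissue make in inflammation, was higher. Its value was 9.51 in the array labelled deficient and 8.53 in the control array, a difference of 0.98 or 1.97-fold, rank 328 from the top. In the level class it shares with Tnf, 5% of genes lay above 0.68. The other serum amyloid genes Saa1, Saa2 and Saa4, which in mouse are known mainly as liver genes or as constitutive forms, lay below the floor on both arrays, at 3.83, 5.06 and 4.90 in the array labelled deficient and 3.74, 4.71 and 4.79 in the control array. Probes of the near-identical pair Saa1 and Saa2 may pick up each other's signal.

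The remaining cytokines and Nos2 were dim on both arrays. Il6, a cytokine of fever and the acute phase, had 4.85 in the array labelled deficient and 4.04 in the control array. Its difference of 0.81 is past 1.5-fold, but both values were more than 2 units below the floor and it is not counted. With no floor it would make 3 of 10 genes higher, beside 4.98% of all genes, and Tnf would stay the 1 lower gene, beside 13%. In its class of mean level from 4 to 5 the median difference was -0.43 over 1366 genes and 5% lay above 0.29.

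Il12b, the p40 subunit shared by IL-12 and IL-23, had 6.27 in the array labelled deficient and 6.72 in the control array, a difference of -0.45. Il10, which restrains inflammatory cytokines, had 6.71 in the array labelled deficient and 6.39 in the control array, a difference of 0.32. Nos2 had 6.45 in the array labelled deficient and 6.32 in the control array, a difference of 0.13, the smallest of the 10 as deposited. All 3 fell in the class of mean level from 6 to 7, where the median difference over 3981 genes was -0.16, with 5% of them below -0.68 and 5% above 0.47. Both values of each gene lay below the floor, so the direction of these differences rests on dim signal.

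Counted together, 2 of the 5 genes that reached the floor were higher in the array labelled deficient by 1.5-fold or more (Il1rn and Saa3), 1 was lower (Tnf) and 2 lay between (Il1b and Il18). Of all genes at or above the floor, 7.54% were higher and 8.81% lower by the same rule. At 2-fold, 1 of the 5 was higher (Il1rn) and 0 were lower, against 2.96% and 1.59% of all genes. The median difference was 0.46 over those 5 genes and 0.45 over all 10, beside -0.08 over all genes at or above the floor and -0.15 over all 19871. With so few genes, a share of 5 says little. Without regard to size, 8 of the 10 differences were positive and 2 (Tnf and Il12b) were negative. Of the 10 genes, 5 lay below the floor on both arrays. The share of all genes with a positive difference was not computed, so this count has no reference.

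**Figure D2:**
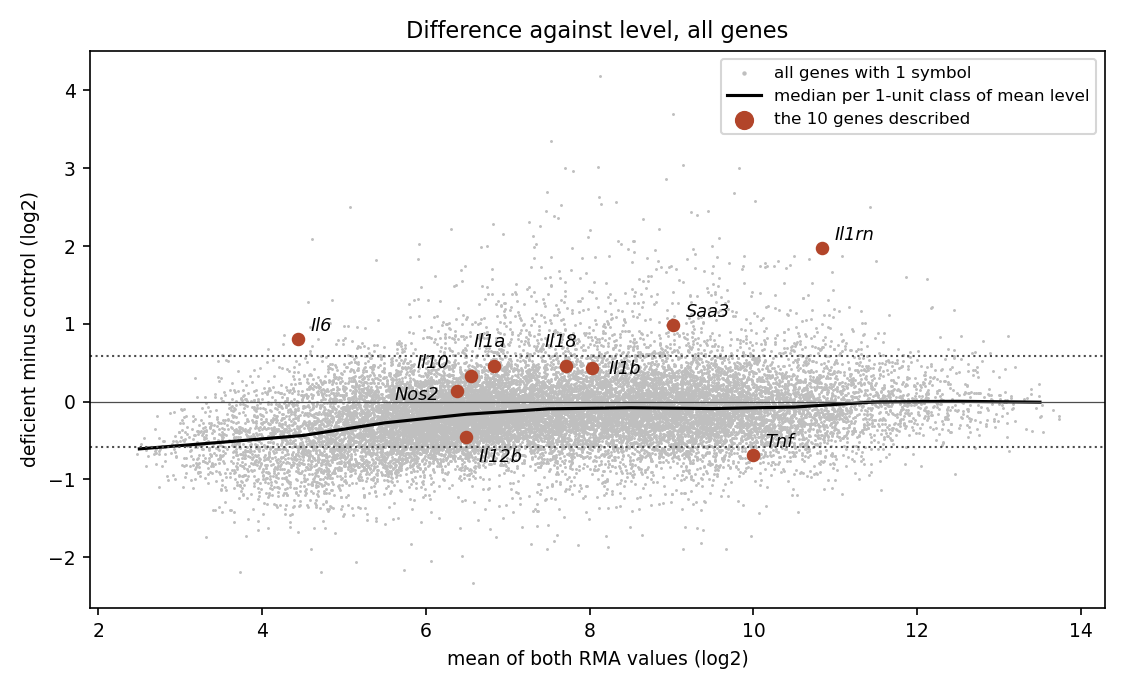
Difference between the arrays (deficient minus control, log2) against the mean of both values (log2) for all genes with 1 symbol (grey), with the median per 1-unit class of level (black line, classes of 20 or more genes) and the 1.5-fold limits (dotted). Il1rn at 1.97 and Saa3 at 0.98 lie above the upper limit and Tnf at -0.68 just below the lower one; Il6 also lies above the limit, in the dim range where the median of all genes is negative.

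The level-dependent shift between the arrays bore on the size of these differences but on none of their directions. Over all 19871 genes the median difference was -0.15 as deposited, -0.08 after each column was centred on its median, -0.00 after quantile normalization and 0.02 once the loess trend on level had been removed. Higher genes made up 46.1% of all 1.5-fold calls as deposited and 58.7%, 56.2% and 62.0% under these scalings. Over the deposited and rescaled values Il1rn ranged from 1.97 to 2.04, Saa3 from 0.98 to 1.07 and Tnf from -0.68 to -0.61. Saa3 was past 2-fold in the 3 rescaled forms and just short of it as deposited. Il6 moved most, from 0.81 as deposited to 1.26 after quantile normalization and after loess. Each of the 10 genes kept its sign in every scaling.

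**Figure D3:**
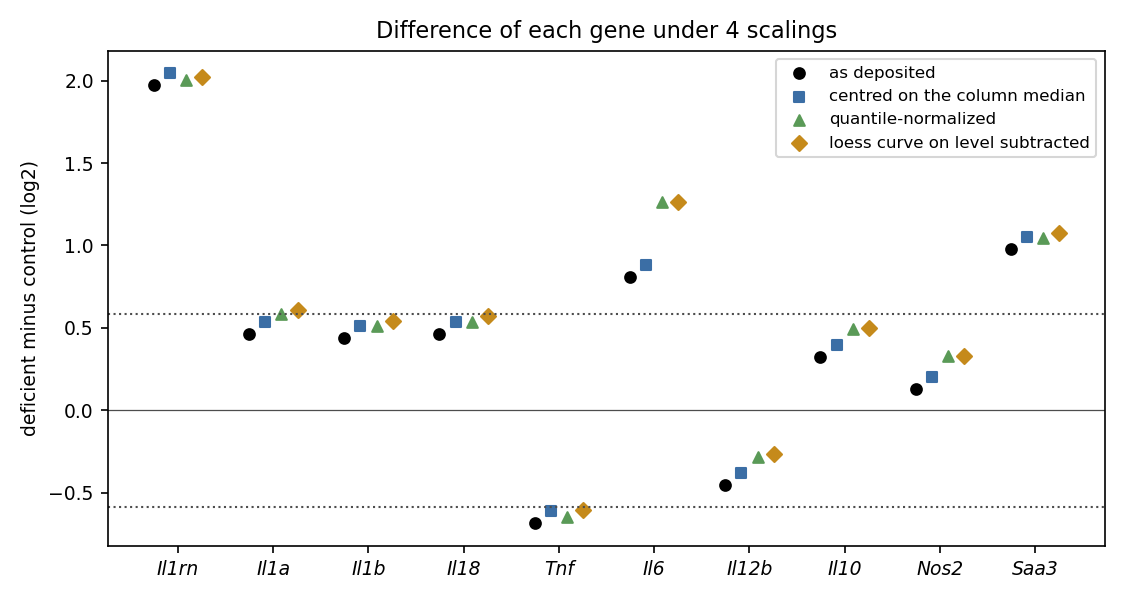
Difference of each of the 10 genes (deficient minus control, log2) with the values as deposited, centred, quantile-normalized or with a loess curve on level subtracted; dotted lines mark 1.5-fold. Il1rn, Saa3 and Tnf stay on their side of the dotted lines in all 4, Il1a crosses the upper line only after loess (0.61), and Il6 shifts by the most.

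Receptors and signal proteins of the IL-1 and IL-18 system were mostly level. Of 27 genes listed, 23 were matched to a row and 16 reached the floor, of which 2 were higher, 1 was lower and 13 lay between, with a median of 0.10. The higher and lower shares were 12.5% and 6.25%, beside 7.54% and 8.81% of all genes at or above the floor. Il1r1, Il1rl1 and Irak4 had no row with 1 symbol. The IL-36 receptor antagonist has a row as Il1f5, below the floor on both arrays, but was listed as Il36rn and was not matched. The 2 higher ones are a ligand and its receptor chain. Il1f9, the agonist IL-36 gamma, had 8.18 in the array labelled deficient and 6.79 in the control array, a difference of 1.38. Il1rl2, the IL-36 receptor chain, had 7.69 in the array labelled deficient and 7.00 in the control array, a difference of 0.69. The control value of both was below the floor. Casp1, the protease that activates IL-1 beta and IL-18, differed by 0.42. The lowest was Il1rap, the accessory chain of the IL-1 receptor, at 7.71 in the array labelled deficient and 8.33 in the control array, a difference of -0.62, followed by the signal proteins Traf6 (-0.48) and Irak1 (-0.28). Under the 3 scalings Il1rap was no longer past 1.5-fold (up to -0.51) and 0 genes of the list were lower.

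Genes around TNF differed little. Of 23 genes listed, 22 were measured and 19 reached the floor, of which 1 was higher and 0 were lower. Those are 5.26% and 0% of the 19, beside 7.54% and 8.81% of all genes. The list's median of -0.00 turned to small positive values under the 3 scalings. The higher gene was Timp3, an inhibitor of the protease that sheds TNF, with 10.98 in the array labelled deficient and 10.14 in the control array, a difference of 0.84. Next came the second TNF receptor Tnfrsf1b (0.40) and Litaf (0.32). The lowest were the kinase Map3k7 (-0.27), its adaptor Tab2 (-0.23) and the death adaptor Fadd (-0.20).

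Receptors and JAK-STAT genes for IL-6, IL-10 and IL-12 split in 2 directions. Of 26 listed, 24 were measured and 20 reached the floor, of which 5 were higher and 3 were lower. Their median was 0.12, and -0.06 when the floor was set at the 75th percentile of all values. The higher and lower shares were 25% and 15%, beside 7.54% and 8.81% of all genes. Stat2, a signal protein of interferon receptors, was highest (0.81), followed by the ligand-binding IL-10 receptor chain Il10ra, with 10.91 in the array labelled deficient and 10.15 in the control array (0.76), and the shared IL-6 signal chain Il6st, with 11.11 in the array labelled deficient and 10.40 in the control array (0.70). The lowest gene, Il12rb2, a signalling chain of the IL-12 receptor, had 6.56 in the array labelled deficient, below the floor, and 8.16 in the control array, a difference of -1.60. Stat4, which carries the IL-12 signal, had 7.84 in the array labelled deficient and 8.89 in the control array, a difference of -1.05, and Ebi3, a subunit of IL-27, differed by -0.68.

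Among genes of arginine and nitric oxide, Arg1, Ddah1 and Slc7a1 differed by 1.5-fold or more. Of 21 genes listed, 19 were measured and 13 reached the floor, 2 of them higher and 1 lower. Their median was 0.05, and -0.0039 without a floor. The higher and lower shares were 15.4% and 7.69%, beside 7.54% and 8.81% of all genes. Under centring and quantile normalization 3 were higher and under loess 4, with medians from 0.12 to 0.16. Higher calls over all genes also rose, from 804 as deposited to 997 under centring, 945 under quantile normalization and 1048 under loess. Arg1, the arginase that competes with Nos2 for arginine, had 8.92 in the array labelled deficient and 6.39 in the control array, where it was below the floor, a difference of 2.53. Ddah1, which breaks down a natural inhibitor of nitric oxide synthases, differed by 0.81, and Adh5, which clears a nitric oxide adduct of glutathione, by 0.56 (up to 0.64 when rescaled). The arginine transporter Slc7a1 was lowest, with 8.96 in the array labelled deficient and 9.95 in the control array, a difference of -0.99, followed by Ddah2 (-0.24) and the polyamine enzyme Odc1 (-0.18).

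Of 20 acute phase genes and receptors listed, 18 were measured and 6 reached the floor, 3 of them higher and 0 lower. Their median was 0.56, and -0.01 over all 18. Shares at or above the floor were 50% higher and 0% lower, beside 7.54% and 8.81% of all genes. The higher ones were acute phase genes. Ceruloplasmin Cp had 9.43 in the array labelled deficient and 6.80 in the control array, where it was below the floor (2.63). Haptoglobin Hp had 9.77 in the array labelled deficient and 7.83 in the control array (1.94). Lipocalin-2 Lcn2 had 11.96 in the array labelled deficient and 11.19 in the control array (0.77). The lipid receptors Cd36 (0.35) and Scarb1 (-0.13) and the receptor Tlr2 (-0.35) lay within 1.5-fold.

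Of the transcription factors that drive these cytokines, 25 of 27 listed were measured and 24 reached the floor. Of the 24, 1 was higher and 2 were lower, with a median of 0.09. That is 4.17% and 8.33%, beside 7.54% and 8.81% of all genes. Maf, a factor known to favour Il10, was higher at 11.52 in the array labelled deficient and 10.86 in the control array (0.66), with Irf1 (0.39) and Jun (0.37) next. Fosb, with 6.84 in the array labelled deficient and 7.98 in the control array (-1.14), and Cebpa (-0.71) were lower, and the NF-kappaB subunit Rel differed by -0.56. Among genes that restrain the response or regulate cytokine mRNA decay in either direction, 22 of 22 were measured and 21 reached the floor. Of these 1 was higher and 2 were lower, with a median of -0.19. That is 4.76% and 9.52%, beside the same shares of all genes. Tnip3, which restrains NF-kappaB, differed by 0.60, the RNA-binding protein Tia1 by 0.44 and Tnip2 by 0.20. The mRNA decay factor Zfp36l1 (-0.68) and the NF-kappaB inhibitor Nfkbia (-0.61), itself an NF-kappaB target, were the lower ones, followed by Nfkbie (-0.45). Under the 3 scalings Nfkbia was no longer past 1.5-fold (up to -0.53) and 1 gene was lower.

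Of 40 other cytokine genes listed, 37 were measured and 12 reached the floor, with 3 higher, 1 lower and a median of 0.20, which was -0.08 without a floor. The higher and lower shares were 25% and 8.33%, beside 7.54% and 8.81% of all genes. Under each of the 3 scalings 5 were higher, and higher calls over all genes rose too. Csf1, the growth factor of macrophages, had 11.30 in the array labelled deficient and 10.12 in the control array, a difference of 1.18. Lif (0.86), with a control value below the floor, and Clcf1 (0.68), both of the IL-6 family, were the other higher ones. Osm, also of the IL-6 family, was lower, with 7.81 in the array labelled deficient and 8.70 in the control array (-0.89), and Tgfb1 (-0.42) and Tnfsf9 (-0.18) followed. Over all 8 lists together, 190 genes were matched to a row and 131 reached the floor, of which 18 were higher and 10 lower. That is 13.7% and 7.63%, beside 7.54% and 8.81% of all genes, with a median of 0.01.

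Markers of some other cell types also differed between the arrays. For every marker list the reference is all genes at or above the floor, of which 7.54% were higher and 8.81% lower. Of 9 macrophage markers at or above the floor 1 was higher and 0 were lower, from Fcgr1 (0.78) and Mertk (0.42) to Spi1 (-0.17) and Lyz2 (-0.38), and their summed level on the linear scale in the array labelled deficient was 0.98 of that in the control array. Cd163 and Marco were below the floor on both. Of 12 neutrophil markers 9 were higher and 0 lower, from Retnlg (2.57) and Mpo (2.22) to Csf3r (-0.06, with a changed sign under the 3 scalings) and Camp (-0.43), and their summed level was 14586 in the array labelled deficient and 6372 in the control array, a ratio of 2.29. Of 12 fibroblast and stromal markers 11 reached the floor, 10 were higher and 0 lower, from Cxcl12 (2.87) and Pdgfra (2.12) to Acta2 (0.62) and Thy1 (0.18), and their summed level was 25644 in the array labelled deficient and 13214 in the control array, a ratio of 1.94. Among the markers named here, Retnlg, Pdgfra and Thy1 were below the floor in the control array. Neutrophils are known to express Il1rn and Il1b, and fibroblasts can express Saa3, Il6 and Csf1. The part of these cells in the differences above was not tested, and in bulk RNA more cells of a type and more RNA per cell cannot be told apart.

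Mast cell and basophil markers reached the floor in 4 of 8 cases, with 3 higher and 0 lower, from Prss34 (2.31) and Cpa3 (1.98) to Mcpt8 (0.92) and Hdc (0.02), and their summed level had a ratio of 1.74. The 3 higher ones reached the floor only in the array labelled deficient, which fixes the direction of their differences but not the size. With the floor on the mean 1 was higher, and the median over all 8 was 0.06. Dendritic cell markers at or above the floor split, with 3 of 5 higher and 2 lower, from H2-Aa (1.87) and Itgax (1.53) to Ccr7 (-0.63) and Ccl17 (-0.84). The 5 measured markers below the floor on both arrays all had negative differences, and the median over all 10 was -0.29. Cd209a reached the floor only in the array labelled deficient, and Ccr7 and Ccl17 only in the control array. Under the 3 scalings Ccr7 was within 1.5-fold (up to -0.51) and 1 marker was lower. Lymphocyte markers were mostly dim. Among the 3 T or NK cell markers at or above 7.28, Nkg7 (1.09) was higher, Cd4 (0.15) lay between and Cd5 (-1.21) was lower, and with the floor on the mean 0 were higher and 0 lower. The 3 B cell markers Ebf1 (0.58), Cd79b (0.32) and Blnk (-0.45) lay within 1.5-fold, and Ebf1 passed it under the 3 scalings (up to 0.67).

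**Figure D4:**
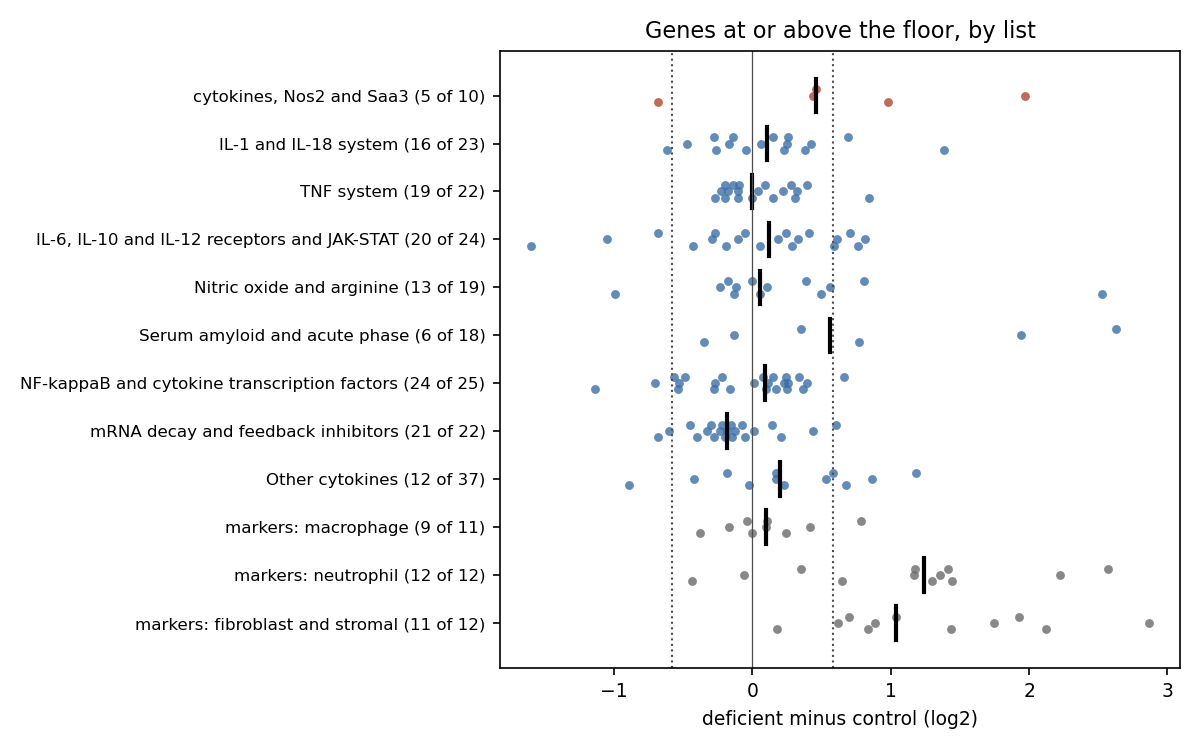
Difference (deficient minus control, log2) of each gene at or above the floor, by list, with the list's median as a black bar and the 1.5-fold limits dotted; the numbers beside each name give how many of the measured genes reached the floor. The median of the 5 cytokine and Saa3 genes is 0.46, those of the pathway lists run from -0.19 to 0.56, and those of the neutrophil and stromal markers are 1.24 and 1.04.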

How the data were processed

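Each column of the deposited table is 1 array, identified by the sample that its header names. The authors deposited log2 values made with RMA, per the submitters' processing notes. In general RMA corrects background, normalizes the arrays of 1 run against each other and summarises probes per transcript cluster. The sources used here do not give its version and settings, any filter on rows or the genome build. The control column carries up to 10 significant digits and the other up to 6. Whether both came from 1 run is unstated in the labels. The log2 scale was read from the range of the values, 2.12 to 14.1.

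Of 25917 rows, 21632 had 1 symbol in GEO's platform annotation, 1560 several and 2725 none. The row with the highest mean was kept for each of 19871 genes, and 10658 of them reached the floor. Differences are the array labelled deficient minus control, so 2 arrays limit the precision and no p-value was computed. Listed genes not matched to a row of 1 symbol, by name or synonym, were not analysed here. Named genes are the 10 genes, Ctnnb1, the 3 highest and 3 lowest of each pathway list and the 2 highest and 2 lowest of each cell type list at or above the floor. The serum amyloid genes Saa1, Saa2 and Saa4, and Cd163 and Marco, are named outside that rule and after their values were seen, as are the genes given by position. The genes and lists were chosen with earlier results of these data known. The loess curve used a fraction of 0.3 in statsmodels 0.14.6 (Python 3.11.15, pandas 2.3.3). The counting and scaling steps were tested on simulated data. Promoter windows came from RefSeq, assembly GRCm38.p6.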

Additional observations from a re-analysis of the deposited data

How the results depend on the processing

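No replicate could be left out, and no paired analysis was possible because each group has 1 array. The counts of 2 higher and 1 lower among the 10 genes were the same under centring, quantile normalization and loess. They were also the same with the floor on the mean and with the floor at the 75th percentile. The mean over rows could not change them, since each of these genes had 1 row. Without a floor 3 were higher, Il6 being the added one, and at 2-fold 1 was higher and 0 lower. Their median of 0.46 became 0.98 with the floor at the 75th percentile, which leaves 3 genes. For the 8 pathway lists, 18 higher and 10 lower became 5 and 3 at 2-fold and 11 and 5 with the floor at the 75th percentile, both of which count fewer genes by construction, and 19 were lower without a floor. Their median of 0.01 was 0.10 under centring, 0.086 under quantile normalization, 0.11 under loess, 0.0083 with the floor on the mean, -0.056 with the floor at the 75th percentile and -0.056 without a floor, so it has no settled sign. Of the other values, those of single genes and single lists, 294 stayed on their side of 1.5-fold or within 1.5 times, 88 counts or medians of lists moved further, and Il1a passed 1.5-fold under loess (0.61). The 294 include the mean over rows, which cannot change a gene that has 1 row. All alternatives were set together with the design. Dim signal limits Il1a, Il6, Il10, Il12b and Nos2.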

Other observations

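The genes next to Il1rn, Saa3, Tnf and Il10 were read in RefSeq order, a choice made after the values were seen. Il1rn lies beside other genes of the IL-1 family on chromosome 2. Its nearest measured neighbour on one side, Il1f10, had 5.09 in the array labelled deficient and 5.70 in the control array, a difference of -0.60, followed by Il1f5 (-0.31) and Il1f6 (0.48). All 3 were below the floor on both arrays. On the other side Psd4 had 9.15 in the array labelled deficient and 9.33 in the control array, a difference of -0.18. Of these 4 only Psd4 reached the floor, and it lay within 1.5-fold. Saa3 lies on chromosome 7 between Saa4 and Saal1. Saal1, the next measured gene on that side, had 8.77 in the array labelled deficient and 8.42 in the control array, a difference of 0.35.

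Tnf lies on chromosome 17 between its relatives Ltb and Lta, the lymphotoxin genes. Ltb had 6.26 in the array labelled deficient and 6.89 in the control array (-0.63), and Lta had 6.37 in the array labelled deficient and 6.17 in the control array (0.20), all below the floor. Il10 lies on chromosome 1 beside the related cytokine genes Il19, Il20 and Il24, which differed by -0.19, -0.84 and -0.14, and all 3 were below the floor on both arrays.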
